A study of Mus musculus with 6 samples.

Results

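The genes described here encode radial spoke, central pair and other proteins of motile cilia. They were followed in preparations of type II alveolar epithelial cells, which make lung surfactant. The cells came from mice with a conditional deletion of Gpr116, an adhesion receptor of these cells, and from controls. The members were chosen by gene symbol. They were all genes named Cfap, Rsph, Tekt, Spag or Spef followed by a digit, plus 10 ciliary genes listed singly (Hydin, Bbof1, Ccdc170, Adgb, Sntn, Tppp3, Ccdc113, Ccdc153, Fam183b and Cdhr3). This gave 66 genes of 19938 tested, 56 by name pattern and 10 listed singly, and all 66 were measured on all 6 arrays with no filter on dim signals. The list was drawn up with the comparison of knockout and control arrays in view. The differences between groups are therefore given as a description of the members, without p values.

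There were 6 arrays, 3 per group, and the RNA on each was a pool from 3 mice of 8 weeks of age. The arrays labelled knockout came from mice with the SP-C-rtTA and (tetO)7CMV-Cre transgenes and Gpr116flx/flx alleles, in which the surfactant protein C promoter drives the activator that turns on Cre recombinase. The control mice had both transgenes and, per their label, no conditional allele. Cells were released with collagenase, enriched by differential plating and lysed 2 hours after isolation, a procedure that does not select single cell types. Nothing in the labels says whether Cre acted in ciliated cells. The comparison addresses how transcripts in this preparation differ between mice labelled with the Gpr116 deletion and controls.

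Motile cilia move fluid over the airway surface and are carried by ciliated cells, which line the airways and are not part of the alveolar epithelium. Their core, the axoneme, is a ring of doublet microtubules around a central pair. Dynein arms slide the doublets past each other, and radial spokes pass signals from the central pair to the dyneins. Tektins and other proteins line the inside of the doublets. The genes for these parts are switched on together by the transcription factor Foxj1 and by factors of the RFX family.

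The probe set for Gpr116 (Adgrf5) did not check the genotype. Its level was 11.78 to 11.89 with the knockout label and 11.49 to 11.53 in controls, so it was higher with the knockout label (0.34 ± 0.05, limma adjusted p = 0.0119), and the sources used here do not place its probes against the deleted exons. All directions therefore rest on the labels. Of 14 type II cell markers, 3 were higher and 0 lower (limma, 5 and 0 at an unadjusted p under 0.05), and their mean log2 level was 12.32 to 12.37 with the knockout label and 12.21 to 12.23 in controls. Without knockout 3, without any 1 control array or with the replicate block, 1 was higher. Array medians lay between 6.77 and 6.81. Knockout 1 carried more signal for the leukocyte genes Ptprc (7.93, against 5.54 and 5.58 on the other arrays labelled knockout) and Cd8a (7.75, against 6.10 and 6.07). Cd3e was also higher there (7.17, against 6.42 and 6.38). Over 13 leukocyte markers the median shift from the control mean on knockout 1 was 0.043. Their mean level on knockout 1 was 5.894, against 5.461 to 5.585 on the controls. The labels do not say that the pools of a group were isolated separately, so the spread between arrays may be partly technical.

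The axoneme genes were lower as a body on the arrays labelled knockout. With called meaning a Benjamini-Hochberg adjusted p under 0.05 in limma over all genes, 50 of the 66 members were called lower, 0 higher and 16 were not called. Of all genes tested 5.13% were called lower and 3.36% higher. At an unadjusted p under 0.05 in limma the members counted 54 lower and 0 higher, against 2104 and 2298 of the 19938 genes tested. The 2 groups did not overlap in 54 members with the arrays labelled knockout below every control array, and in 1 member, Spag9, with them above. Over all genes these shares were 12.8% and 14.8%. The median log2 difference was -0.86 over the 66 members and 0.0033 over all genes. Among the 50 called members it ran from -1.42 (Adgb) to -0.33 (Cfap36), and 25 had a difference of at least 1 in size. Mean control levels were 8.83 to 8.91 over the 50 called members and 6.96 to 6.99 over the 16 not called. Low signal compresses log2 differences, and its part in the missing calls was not tested. The count of members called lower was 28 without control 1, 27 without control 2 and 23 without control 3. Over all genes the lower calls went from 1022 to 389, 370 and 301 in these fits. Of the 50 member calls 22 were kept in all 6 fits that left out an array, and 15 of the 25 with a difference of at least 1. In bulk RNA such as this, fewer ciliated cells and less ciliary RNA per cell cannot be told apart.

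**Figure D1:**
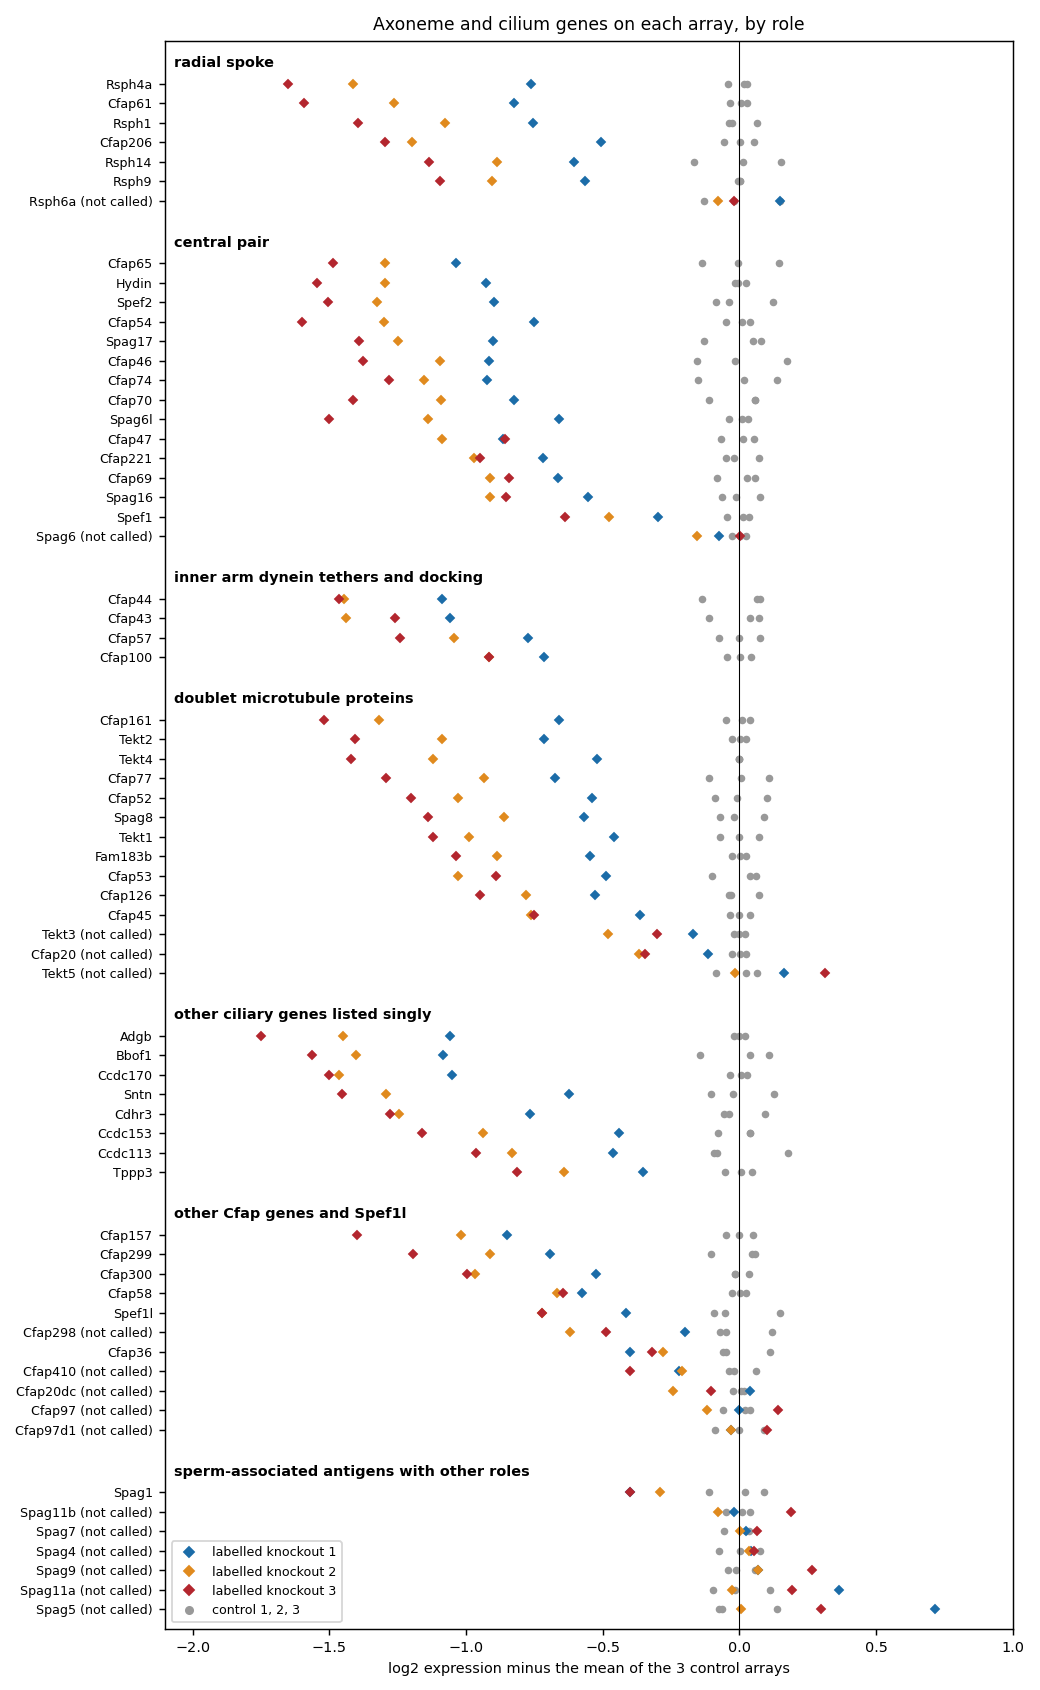
Log2 expression of the 66 members on each array, minus the mean of the 3 control arrays of the same gene (horizontal axis), with 1 row per gene grouped by role. Diamonds are the 3 arrays labelled knockout and grey circles the 3 control arrays; in 54 rows every diamond lies to the left of every circle, and knockout 1 lies closest to the controls in most of them.

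The arrays labelled knockout differed among themselves. Over the 50 called members, the median shift from the control mean was -0.67 on knockout 1, -1.04 on knockout 2 and -1.25 on knockout 3. On a linear scale these are 62.9%, 48.7% and 42.0% of the control level. The control arrays lay close together, with a median standard deviation of 0.070 for these genes against 0.261 on the arrays labelled knockout. Over all genes the medians were 0.0624 and 0.0907. Knockout 1 was the highest of its group in 47 of the 50 genes, and the full ranking of knockout 1, then 2, then 3 was seen in 38. That ranking held for 17.0% of all genes and for 53.1% of the other 972 genes called lower. Ptprc, Cd8a and Cd3e were also highest on knockout 1. Cd3e read 7.17, 6.42 and 6.38 on knockout 1, 2 and 3 against 6.58, 6.44 and 6.64 on control 1, 2 and 3. The mean level of 13 leukocyte markers was 5.894, 5.504 and 5.515 on knockout 1, 2 and 3, and 5.461 to 5.585 on the controls. Of these markers 1 passed the filter on dim genes, and low signal compresses log2 differences. The median shift of the 13 markers was 0.043, 0.0067 and -0.0033 on knockout 1, 2 and 3. The part of leukocyte RNA in the ranking was not tested.

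The members' promoters were searched for the X-box, the sequence that RFX factors bind. RefSeq promoter windows (GRCm38.p6, 250 bases before to 50 after each annotated start) matched 54 of the 66 members and 15614 of the genes tested. One arm of the X-box, GTTGCC, on either strand, was present in 26 of 54 members (48.1%) and in 14.0% of all these genes. The looser whole pattern GTNNCCNNNGNNAC, where N is any base, also searched on either strand, was present in 16 of 54 members (29.6%) and in 5.87% of genes. Both patterns can overlap in the same stretch. Of the 16 members with the whole pattern 13 were called lower, and of all 54 members with a window 41 were. GTTGCC was in 22 of the 41 called and in 4 of the 13 not called, and the whole pattern in 13 and 3. Whether the patterns bear on the differences between groups was not tested. In 10 of the 16 (62.5%) a match began within 50 bases before the start or after it, against 345 of the 916 genes with the pattern (37.7%). The median GC content was 55.7% in the members' windows and 57.3% in all. Stricter forms were rare. GTNNCCATGGNNAC was in 2 of 54 members (0.615% of genes), GTTNCCNNGGNAAC in 2 (0.576%), and GTTNCCATGGNAAC and GTTGCCATGGCAAC in 0 (0.122% and 0.0256%). The members with the first of these, Rsph9 and Cfap126, were called lower. Those with the second, Cfap298 and Cfap20dc, were not called. The forkhead pattern TGTTTAC, of the kind bound by Foxj1, was on either strand in 5 members (9.26%) and 3.54% of genes. A match of letters is a description of the window and does not show binding.

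The whole pattern lay entirely before the annotated start in 9 called members. The stretches of 6 of them follow, chosen so that spoke, central pair, dynein tether and doublet genes are each shown. They are read 5′ to 3′ on the gene's strand, in lower case, with the match in capitals, and end at the start or 40 bases past the match. In Cfap44, Hydin and Cfap45 the capitals match the pattern as read on the other strand.
Cfap44: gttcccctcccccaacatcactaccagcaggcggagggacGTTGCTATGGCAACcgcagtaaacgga
Hydin: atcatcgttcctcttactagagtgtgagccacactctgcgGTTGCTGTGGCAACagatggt
Cfap206: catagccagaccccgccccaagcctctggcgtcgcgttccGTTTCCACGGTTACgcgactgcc
Tekt1: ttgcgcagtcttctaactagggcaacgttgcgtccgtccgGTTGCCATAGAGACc
Spag16: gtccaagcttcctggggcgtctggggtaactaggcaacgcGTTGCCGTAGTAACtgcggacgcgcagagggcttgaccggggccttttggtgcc
Cfap45: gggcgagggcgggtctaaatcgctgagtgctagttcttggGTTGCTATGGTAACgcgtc
The Cfap44 stretch is chr16:44394732-44394798 on the plus strand and the Hydin stretch chr8:110266916-110266976 on the plus strand. Cfap206 is chr4:34730207-34730269 on the minus strand, and Tekt1 is chr11:72361883-72361937 on the minus strand. Spag16 is chr1:69826827-69826920 and Cfap45 is chr1:172521071-172521129, both on the plus strand. The match begins 27, 21, 23, 15 and 19 bases before the start in Cfap44, Hydin, Cfap206, Tekt1 and Cfap45, and 103 bases before it in Spag16. In the doublet genes left out, Tekt4, Cfap77 and Cfap126, it begins 160, 236 and 82 bases before the start. The printed stretches therefore lie nearer to the start than those left out, apart from Spag16.

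Radial spoke genes were lower in 6 of 7 cases, with 1 not called, and their median difference was -1.0. Rsph4a, which encodes a spoke head protein, read 9.85, 9.20 and 8.96 on knockout 1, 2 and 3 against 10.57, 10.64 and 10.63 on control 1, 2 and 3, a difference of -1.28 ± 0.21 (log2, SE, n = 3 per group). Cfap61, part of a complex at the base of the third spoke, read 8.81, 8.37 and 8.04 against 9.66, 9.60 and 9.64, a difference of -1.23 ± 0.17. Rsph1, another spoke head protein, read 7.78, 7.46 and 7.14 against 8.51, 8.50 and 8.60 (-1.08 ± 0.15). In these 3 genes every array labelled knockout lay below the lowest control, and knockout 1 lay nearest to it. Cfap206, which helps to anchor spokes and whose promoter stretch is printed above, read 9.96, 9.27 and 9.17 against 10.52, 10.41 and 10.47, a difference of -1.0 ± 0.19. It was the least stable of the group, called in 1 of the 6 fits that left out an array. No spoke gene was called in all 6. Rsph4a was called in 3, Rsph14 and Rsph9 in 4, and Cfap61 and Rsph1 in 5. Rsph14 and the spoke head gene Rsph9 differed by -0.88 and -0.86. The exception was Rsph6a, a paralog of Rsph4a used in sperm, which read 5.75, 5.52 and 5.58 against 5.75, 5.58 and 5.47 and overlapped completely. Rsph3a and Rsph3b share 2 probe sets, which were not members, and these stood at -0.30 and -0.32.

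Central pair genes were lower in 14 of 15 cases, with a median difference of -1.11. Hydin, the large protein whose loss causes hydrocephalus in mice, read 8.94, 8.57 and 8.32 against 9.86, 9.85 and 9.89, a difference of -1.26 ± 0.14 and 2.39-fold lower. Cfap65 read 9.12, 8.86 and 8.67 against 10.15, 10.02 and 10.30 (-1.27 ± 0.12). Spef2, a projection protein, read 9.04, 8.61 and 8.43 against 9.90, 9.85 and 10.06 (-1.24 ± 0.15). The gap between the groups was wider than the spread within either group in these 3 genes.

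Cfap46, Cfap54, Cfap74 and Cfap221 belong to 1 projection of the central pair, and all 4 were called lower. Cfap54 read 8.73, 8.18 and 7.88 against 9.49, 9.43 and 9.52 (-1.22 ± 0.19). Cfap46 read 8.03, 7.85 and 7.57 against 8.93, 8.79 and 9.12 (-1.13 ± 0.13). Cfap74 read 7.63, 7.40 and 7.27 against 8.57, 8.40 and 8.69 (-1.12 ± 0.11). Cfap221 differed by -0.88, and none of the 4 overlapped between groups. Of them only Cfap54 lost its call when an array was left out, and kept it in 3 of 6 such fits.

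Spag17, a large scaffold of the central pair, read 7.91, 7.56 and 7.42 against 8.86, 8.68 and 8.89 (-1.18 ± 0.13). Cfap70 read 7.61, 7.34 and 7.02 against 8.49, 8.32 and 8.49 (-1.11 ± 0.14). Spag6l, a central pair protein with armadillo repeats, read 10.01, 9.53 and 9.17 against 10.68, 10.63 and 10.70 (-1.10 ± 0.19). Knockout 3 was the lowest array for each of these. Spag17 and Cfap70 kept their calls in all 6 fits that left out an array, and Spag6l in 3. The close relative Spag6 read 6.29, 6.21 and 6.37 against 6.37, 6.39 and 6.34 and was not called (-0.08 ± 0.06). Whether probes of Spag6 and Spag6l pick up each other's transcripts was not tested. Cfap47 (-0.94), Cfap69 (-0.81), Spag16 (-0.77) and Spef1 (-0.47), a microtubule-bundling protein, completed the group.

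All 4 genes for inner arm dynein tethers and docking proteins were called lower, with a median difference of -1.14. Cfap44 read 9.14, 8.78 and 8.76 against 10.30, 10.09 and 10.29, a difference of -1.33 ± 0.12 and 2.52-fold lower. Cfap43, its partner in the tether of an inner dynein arm, read 8.78, 8.40 and 8.58 against 9.88, 9.73 and 9.91 (-1.25 ± 0.10). Cfap57 read 7.79, 7.52 and 7.32 against 8.56, 8.49 and 8.64 (-1.02 ± 0.12). Cfap100 differed by -0.85 ± 0.07. Each of the 4 was also called in all 6 fits that left out an array.

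Of 14 genes for proteins of the doublet microtubules, 11 were called lower and 3 were not called, and the median difference was -0.84. Cfap161 read 8.56, 7.90 and 7.70 against 9.17, 9.26 and 9.23 (-1.17 ± 0.20). Tekt2, a tektin filament protein, read 7.19, 6.82 and 6.50 against 7.88, 7.91 and 7.93 (-1.07 ± 0.16). Tekt4 read 9.02, 8.42 and 8.12 against 9.54 on all 3 control arrays (-1.02 ± 0.20). The groups did not overlap in these genes, and the SD of Tekt4 among the arrays labelled knockout was 0.458, against a median of 0.261 over the called members. Its call was kept in 1 of 6 fits that left out an array, and no gene of this group kept its call in all 6. Tekt1, Cfap53 and Cfap45 kept theirs in 2, Cfap161, Cfap52 and Spag8 in 3, Tekt2, Cfap77 and Fam183b in 4 and Cfap126 in 5. Fam183b read 9.67, 9.33 and 9.18 against 10.24, 10.22 and 10.19 (-0.82 ± 0.12).

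The tektins did not move alike. Tekt1 was called lower at -0.86 ± 0.16, beside Tekt2 and Tekt4. Tekt3 stood at -0.32 ± 0.08 and was not called, although its groups did not overlap. Tekt5, which is known from sperm, read 7.52, 7.34 and 7.67 against 7.38, 7.42 and 7.27 and was not called (0.15 ± 0.09). Cfap20, a conserved doublet protein that cells without motile cilia also use, stood at -0.28 ± 0.08 without a call. Cfap77 (-0.97), Cfap52 (-0.92), Spag8 (-0.86), Cfap53 (-0.80), Cfap126 (-0.75) and Cfap45 (-0.63) were called lower.

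The 10 genes listed singly were all called lower, which follows in part from how they came to be listed. Adgb, a globin with a protease domain, read 7.51, 7.12 and 6.82 against 8.59, 8.55 and 8.57, a difference of -1.42 ± 0.16. Bbof1, which orients basal bodies, read 7.56, 7.24 and 7.08 against 8.68, 8.50 and 8.75 (-1.35 ± 0.13). Ccdc170 read 7.68, 7.27 and 7.23 against 8.76, 8.70 and 8.74 (-1.34 ± 0.12). These 3 had the largest differences of the members and did not overlap between groups.

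Sntn, a protein of the ciliary tip, read 9.22, 8.55 and 8.39 against 9.97, 9.82 and 9.74 (-1.12 ± 0.20). Cdhr3, a cadherin of ciliated airway cells, read 9.33, 8.85 and 8.82 against 10.04, 10.06 and 10.19 (-1.10 ± 0.14). Tppp3, a tubulin polymerisation protein, read 11.33, 11.04 and 10.87 against 11.73, 11.69 and 11.63 (-0.60 ± 0.11). All 3 were lowest on knockout 3. Ccdc153 and Ccdc113 differed by -0.85 and -0.75. Of this set Sntn, Tppp3, Ccdc153 and Ccdc113 kept their calls in 2, 3, 1 and 2 of the 6 fits that left out an array.

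Of 11 other members, 10 Cfap genes and Spef1l, 6 were called lower and 5 were not called, with a median difference of -0.44. Cfap157 read 8.28, 8.11 and 7.73 against 9.08, 9.13 and 9.18 (-1.09 ± 0.13). Cfap299 (-0.93), Cfap300 (-0.83), Cfap58 (-0.63), Spef1l (-0.62) and Cfap36 (-0.33) were also called. Cfap298, which assists dynein assembly, read 9.47, 9.05 and 9.18 against 9.79, 9.62 and 9.60 and was not called (-0.44 ± 0.11), but was in the fit that blocked on replicate number. Cfap36 was called and lost its call with that block. Cfap410 stood at -0.28 and Cfap20dc, Cfap97 and Cfap97d1 at -0.10, 0.0067 and 0.013. Cfap20dc and Cfap97d1 lay between 4.24 and 4.92, below the array medians, where log2 differences are compressed.

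Sperm-associated antigens with other roles did not follow the axoneme genes. Of 7 such members 1 was called, Spag1, a cytoplasmic factor in dynein assembly, at -0.36 ± 0.07, and this call was lost with the replicate number as a block. Spag9, a scaffold of JNK signalling, read 9.63, 9.63 and 9.83 against 9.52, 9.62 and 9.55 (0.13 ± 0.07). Spag5, a mitotic spindle protein, read 7.70, 6.99 and 7.28 against 6.92, 6.91 and 7.12 (0.34 ± 0.17). Spag4, Spag7, Spag11a and Spag11b stood between 0.030 and 0.18. These 7 genes share a name and not a place in the axoneme, and their median difference was 0.043. With the filter on dim genes 2 of them were left, with a median of 0.082. The part of low signal in these small differences was not tested.

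Genes with several probe sets gave the same picture on each. The 66 members had 97 probe sets in all, and 8 members had more than 1. On all 39 probe sets of these 8 genes the arrays labelled knockout lay below every control array, with differences of -1.42 to -0.66. Spef2 had 22 probe sets with differences of -1.38 to -0.97, and Cfap43 had 5 with differences of -1.40 to -1.25. Probe sets of a gene share the same RNA and are not replicates.

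**Figure D2:**
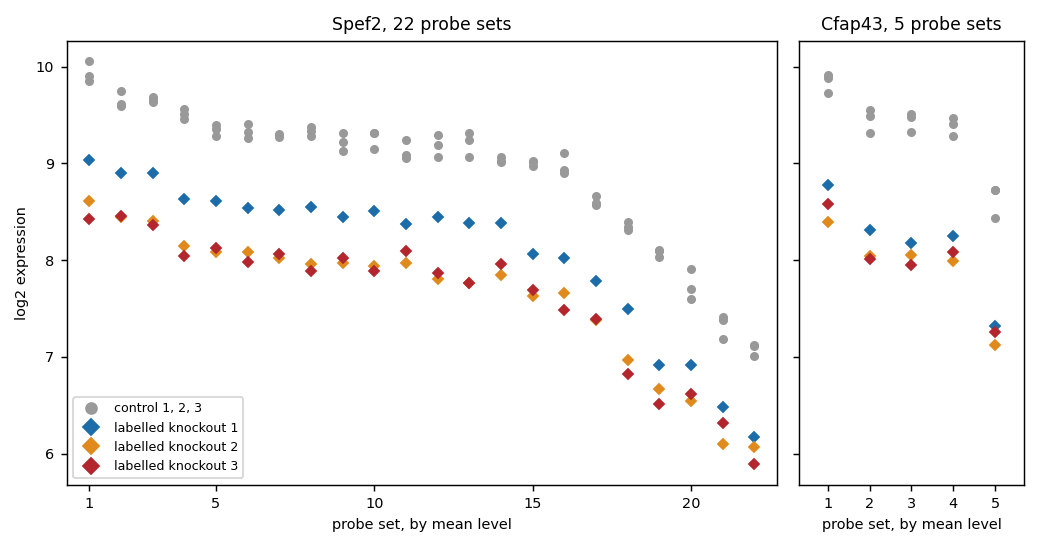
Log2 expression on each probe set of Spef2 (left, 22 probe sets) and Cfap43 (right, 5), ordered by mean level along the horizontal axis. Grey circles are control arrays and diamonds the arrays labelled knockout; in each probe set all 3 diamonds lie below all 3 circles.

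The size of the fall from knockout 1 to knockout 3 differed between members. Its median over the 50 called genes was 0.495 on log2, and it ran from -0.08 (Cfap36) to 0.90 (Tekt4). In 6 genes it was 0.8 or more, namely Cfap161, Cfap54, Rsph4a, Sntn, Spag6l and Tekt4, with a median difference from controls of -1.15. In 7 genes it was 0.2 or less, namely Cfap100, Cfap36, Cfap43, Cfap47, Cfap58, Cfap69 and Spag1, with a median difference of -0.81. Cfap47, on the X chromosome, read 7.21, 6.99 and 7.22 against 8.01, 8.09 and 8.13. Cfap58 read 6.77, 6.68 and 6.70 against 7.35, 7.37 and 7.32. In all 7 genes the arrays labelled knockout lay below every control. They were not level in each, since Cfap43 spanned 0.38 among them, with knockout 2 lowest, against 0.18 among the controls. Across the 50 genes, which share the same arrays, the fall correlated with the difference from controls at r = -0.55. Both measures use knockout 1 and knockout 3, and a gene with a wide spread is called only if its difference is large. The correlation and the contrast between the sets above are therefore partly fixed by the choice of called genes, and no conclusion is drawn from them. The ranges within the arrays labelled knockout exceeded the control ranges in 48 of the 50.

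**Figure D3:**
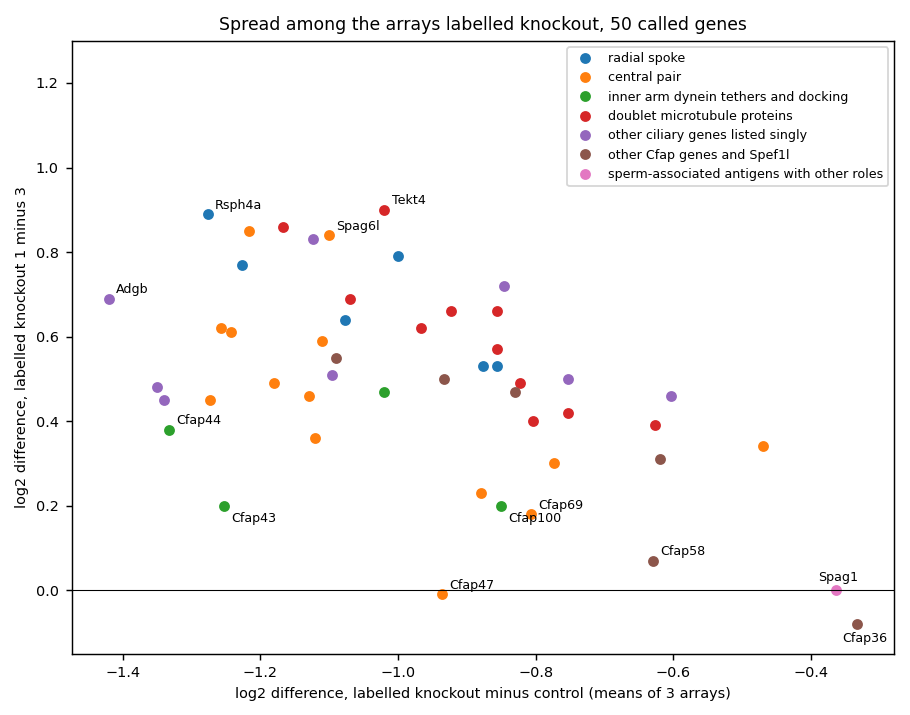
For the 50 called genes, the log2 difference between the group means (horizontal axis) against knockout 1 minus knockout 3 (vertical axis), coloured by role. Most points lie above 0, the highest being Tekt4 at 0.90. Cfap43 at 0.20 and Cfap47 at -0.01 lie low in spite of group differences of -1.25 and -0.94.

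Other ciliary genes, which were no members, were lower too. They came from 5 lists drawn from general knowledge and with earlier results of these data known. Together they held 109 measured genes, of which 85 were called lower and 0 higher (limma), with a median of -0.63, against 5.13% and 3.36% of all genes tested. Axonemal dyneins and their assembly factors were lower in 27 of 31, with the dynein heavy chains Dnah11 at -1.12 ± 0.10 and Dnah7b at -1.18 ± 0.10. The nexin-dynein regulatory complex was lower in 9 of 9, with Fbxl13 at -1.21 ± 0.11 and Drc7 at -0.97 ± 0.10. Other axoneme and cilium proteins were lower in 24 of 26, with Rp1, known from the photoreceptor cilium, at -0.97 ± 0.09 and Lrrc23 at -1.26 ± 0.13. For these 6 genes limma gave adjusted p of 0.00389 to 0.00473. The counts without control 1, control 2 and control 3 were 19, 18 and 16 for the dyneins, 4, 4 and 4 for the regulatory complex and 14, 12 and 7 for the other axoneme proteins. Over all genes these fits gave 389, 370 and 301 lower calls, against 1022 with all arrays.

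Intraflagellar transport genes, which build primary as well as motile cilia, were lower in 16 of 22 with a median of -0.47, against -0.86 over the members. Traf3ip1 stood at -0.88 ± 0.08, Ift81 at -0.53 ± 0.06 and Ift74 at -0.58 ± 0.07 (limma adjusted p of 0.00389 to 0.00546).

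Regulators of multiciliated cell formation were lower in 9 of 21 with a median of -0.31. Their differences ran from -1.27 to 0.26. Gmnc, which starts the multiciliated programme, read 6.82, 6.03 and 5.89 against 7.64, 7.65 and 7.25 (-1.27 ± 0.24, limma adjusted p = 0.0244). Deup1, which serves the amplification of centrioles, stood at -0.91 ± 0.15 (adjusted p = 0.0143). Myb stood at -1.10 ± 0.27 and was not called (adjusted p = 0.0565), but was with the replicate block and without knockout 1. Leaving out arrays in turn, Gmnc was called without knockout 1 and in none of the other 5 fits, and Deup1 lost its call without any 1 control array. Foxj1 read 8.90, 8.64 and 8.47 against 9.34, 9.43 and 9.59 (-0.78 ± 0.12, limma adjusted p = 0.0108), and Rfx3 read 8.20, 8.02 and 7.95 against 8.75, 8.67 and 8.72 (-0.66 ± 0.07, adjusted p = 0.00511). Rfx2 was also lower (-0.50 ± 0.09, adjusted p = 0.0159), whereas Rfx1, Rfx4, Rfx5 and Rfx7 stood between -0.16 and 0.043 without a call. Foxj1 was not called without control 2 or control 3, and Rfx2 not without any 1 control array. The counts without control 1, control 2 and control 3 were 7, 6 and 7 for intraflagellar transport and 3, 3 and 2 for the regulators. Differences between these medians were not tested.

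Markers of other cells were set beside the axoneme genes. Of all genes tested 5.13% were called lower and 3.36% higher. At an unadjusted p under 0.05 in limma, 2104 of the 19938 genes were lower and 2298 higher. Ciliated cell markers, none of them members, were lower in 13 of 13. All 13 are also on the lists of other ciliary genes above and are not a further set. They had a mean level of 8.43, 8.00 and 7.83 on knockout 1, 2 and 3 and 9.08 to 9.15 on the controls. Without control 2 they counted 7 and without control 3 they counted 5. Club cell markers were lower in 7 of 13 and higher in 0 (limma, 9 and 0 at an unadjusted p under 0.05), with Scgb3a2 at -0.96 ± 0.09 (adjusted p = 0.00425) and Scgb1a1, near the top of the scale, at -0.13 ± 0.05 (adjusted p = 0.154). The mean club marker level was 10.60, 10.23 and 10.94 on knockout 1, 2 and 3, and 10.80 to 10.97 on the controls. This mean held uncalled secretory genes that were highest on knockout 3, such as Bpifa1 (9.69, 6.96 and 11.74) and Scgb3a1 (10.13, 10.15 and 12.02). Of the 7 club markers called lower, 5 (Aldh1a1, Pon1, Gabrp, Hp and Cyp2f2) had the ranking of knockout 1, then 2, then 3 seen in most axoneme genes. That ranking held for 53.1% of the 972 genes called lower that were no members. Scgb3a2 and Lypd2 did not have it, and they alone among the club markers were called in all 6 fits that left out an array. Without knockout 3 the club count was 3, and without any 1 control array it was 2. Basal cell markers were lower in 1 of 6 and neuroendocrine markers in 2 of 5. Type I cell markers were higher in 1 of 11 and lower in 0. Leukocyte markers had 0 of 13 called in either direction (limma, also 0 at an unadjusted p under 0.05). Endothelial and mesenchymal markers had 1 of 13 lower and 1 higher. When arrays were left out in turn, the basal count was 1 without knockout 1 and 0 in the other 5 fits. The neuroendocrine count was 1 without control 1 and 0 without knockout 3, control 2 or control 3. Of the type I markers 3 were higher without knockout 1 and 0 without knockout 3 or any 1 control array. Of the endothelial and mesenchymal markers 0 were lower without any 1 control array, and 2 were higher without knockout 1 but 0 without control 2 or control 3. Without knockout 1, 1 leukocyte marker was higher. The part of the number of airway cells in each pool in these differences was not tested.

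**Figure D4:**
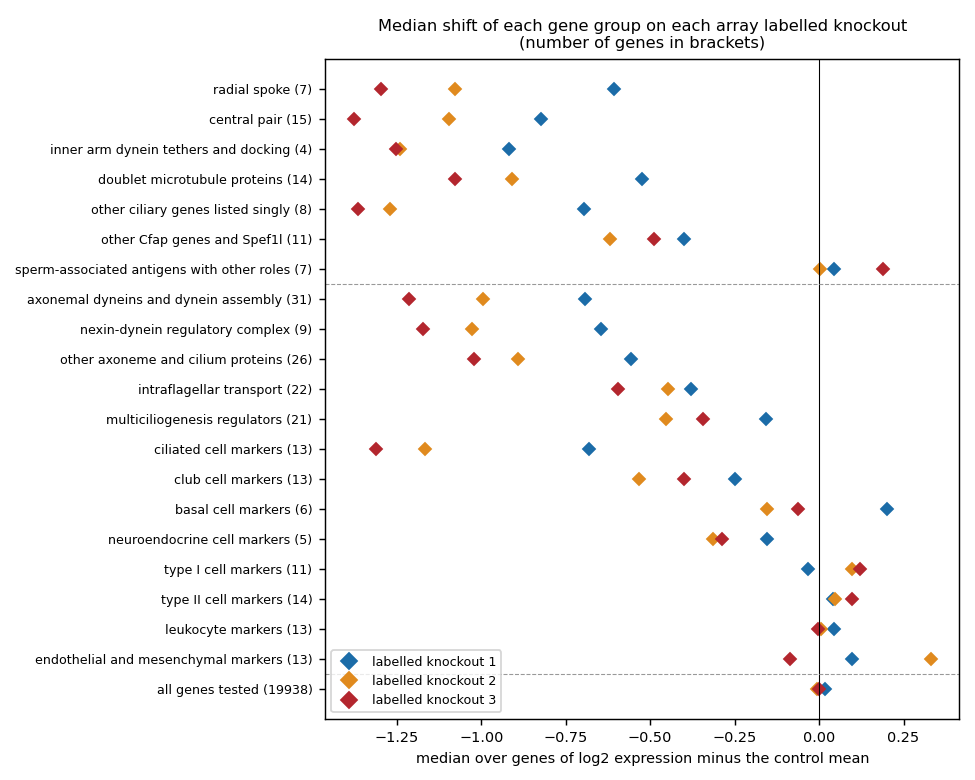
Median over each gene group of log2 expression minus the control mean, on each of the 3 arrays labelled knockout (diamonds), with members by role above the first dashed line, other gene lists below it and all genes tested at the bottom. The 4 structural groups of the axoneme lie between -1.38 and -0.53, while the sperm-associated antigens with other roles and all genes tested lie near 0.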

How the data were processed

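The authors deposited log2 expression values for 35556 probe sets on 6 arrays. The submitters' processing notes name RMA and Affymetrix Expression Console 1.1. RMA makes array distributions alike and compresses differences of dim and very bright probe sets. Probe sets with exactly 1 symbol in the platform annotation (21789, of which 21698 matched RefSeq by Entrez identifier) were reduced to the one with the highest mean per gene, which left 19938 genes. Groups and replicate numbers came from array titles. Their unexplained first numbers (9, 9, 11 for knockout and 8, 8, 10 for control) share no value, so any batch they mark and the group cannot be told apart. Groups were compared by limma 3.58.1 in R 4.3.3 (no trend, filter or block, two-sided, Benjamini-Hochberg over all genes, threshold 0.05), after the fit was tested on simulated data. The number of arrays limits precision.

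Members, role groups and the 13 other lists (16 genes are on more than 1) were chosen with earlier results of these data known. Values on each array are given for members called with a difference of at least 1 in size, for the highest-mean member of each role group and for any member called higher. Up to 3 genes are named from each other list by smallest p, and any other gene was chosen after its values were seen. Deviations from group means of same-numbered arrays correlated at 0.192, 0.103 and 0.111, above the limit of 0.1, so the replicate number was also fitted as a block. The 7 promoter patterns were chosen after the values were seen. The other alternatives were the mean of all probe sets, an eBayes trend, a filter on dim genes, array weights, quantile normalization and leaving out each array.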

Additional observations from a re-analysis of the deposited data

How the results depend on the processing

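The median difference of the 66 members kept its sign and stayed within the spread between arrays under all 12 alternatives, and the count of members called higher was 0 in each. Of the 29 members given their own alternatives 0 reversed direction. Cfap298 gained a call with the filter on dim genes, with array weights, with the replicate block and without knockout 1. The replicate block gave 49 members called lower and gave a call to Cfap298 and took it from Cfap36 and Spag1. With the replicate block 1 neuroendocrine marker was lower, and 0 type I, 1 type II and 2 endothelial and mesenchymal markers were higher. The filter on dim genes left 0 neuroendocrine and 1 type I marker lower and 0 endothelial and mesenchymal markers higher, and no basal marker passed it. Array weights gave 1 type I marker lower, and 2 type I and 2 endothelial and mesenchymal markers higher.

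Leaving out 1 array at a time gave 23 to 52 members called lower. Over all genes these fits gave 301 to 1265 lower calls and 144 to 835 higher calls, against 1022 and 670 with all arrays. The lower calls were 16 to 27 among dynein genes, 4 to 9 in the nexin-dynein complex, 7 to 24 among other axoneme genes, 6 to 19 for intraflagellar transport and 2 to 11 for regulators. They were 5 to 13 among ciliated, 2 to 7 among club, 0 to 1 among basal, 0 to 3 among neuroendocrine and 0 to 1 among endothelial and mesenchymal markers. Higher calls were 0 to 1 among regulators, 0 to 3 among type I, 1 to 3 among type II, 0 to 1 among leukocyte and 0 to 2 among endothelial and mesenchymal markers. With 3 arrays a group, the number of arrays limits what can be called.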
